A study of Homo sapiens with 18 samples.

Results

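The glutathione transferases examined here are 10 genes, GSTP1, GSTM2, GSTM3, GSTM4, GSTO1, GSTZ1, GSTK1, MGST1, MGST2 and MGST3, chosen by symbol among the 57905 Ensembl genes of the count tables because they make the glutathione conjugates that ABCC1 exports. RNA came from BE(2)-m17 cells, a human neuroblastoma line, in 3 experiments of 6 libraries each. All cells carried the APP transposable vector pSBbi-Hyg-APP. The empty vector control cells also carried pSBbi-Pur, and the ABCC1-overexpressing cells carried pSBbi-Pur-ABCC1(WT), which holds a codon-optimized ABCC1 cDNA. Every group had 3 libraries, each from 14000000 plated cells lysed on the fourth day. Both lines came from 1 APP-overexpressing line selected with hygromycin, and each was selected with puromycin after its vector had been integrated by a transposase, so the site of integration can differ between lines. The second experiment was taken as cryopreserved cells and the third as newly transfected cells, since the labels only number the experiments and the study lists them in that order. Each line was plated anew every week, so the libraries of a group may be separate weekly cultures of 1 line, but the labels tie no library to a week, and the p-values measure the spread between these libraries and not between independently made lines.

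Glutathione transferases join the tripeptide glutathione to reactive, electrophilic compounds, and ABCC1, also called MRP1, pumps many of the conjugates out of the cell together with glutathione itself and leukotriene C4. The soluble enzymes fall into classes named by Greek letters, here pi (GSTP1), mu (GSTM2 to GSTM4), omega (GSTO1) and zeta (GSTZ1). GSTK1 is the kappa class enzyme of mitochondria and peroxisomes, and MGST1 to MGST3 are membrane proteins of the MAPEG family, some of which can make leukotriene C4. Several transferase genes are known targets of NRF2, a transcription factor that binds antioxidant response elements.

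The ABCC1 vector sequence had between 51035 and 594404 counts in the 9 libraries labelled ABCC1 and between 0 and 15 in the 9 libraries labelled Puro, so every library matched its label. The depth, as read pairs assigned to features, ran from 8866994 to 57937653 a library, with the deepest libraries in the first experiment and the shallowest in the third. Each of the 11 adrenergic neuroblastoma marker genes had more than 3 counts in at least 1 library of every group. Their summed level was 12660 to 13780 CPM (counts per 1000000 after TMM scaling) in the Puro libraries of the first experiment and 10790 to 12420 in its ABCC1 libraries, 6947 to 8667 against 8839 to 9790 in the second, and 8275 to 12430 against 9360 to 10600 in the third. CHGA and MYCN carried much of these sums and differed in opposite directions in the first experiment, at 6978 CPM against 4913 for CHGA and 2886 against 3943 for MYCN, so the sums do not describe the other markers. Of the other markers, all 4 blood and immune genes and both endothelial genes found in the files had 3 counts or fewer in every library of the first experiment, while the summed endothelial level reached 10.4 to 13.97 CPM against 2.06 to 7.36 in the second experiment and 27.4 to 30.1 against 25.2 to 25.9 in the third. The background of silent genes described in the next paragraph was 56.8% to 99.0% of the level of these endothelial genes, CDH5 and KDR, in the second experiment and 61.4% to 76.7% in the third. In bulk RNA, fewer cells of a type and less RNA per cell cannot be told apart, and the part of these marker levels in the differences of the transferases was not tested.

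Genes taken as silent in these cells were counted too, and their level, the background, differed between experiments and between lines. It was measured on 273 olfactory receptor genes that overlap no other gene, as CPM per kb of exon. In the first experiment these genes had 0.00362 CPM per kb on average in the Puro libraries and 0.00242 in the ABCC1 libraries. The level was 0.616 ± 0.101 against 0.324 ± 0.154 (SD, n = 3) in the second experiment, and in the third 1.68 ± 0.0852 against 1.32 ± 0.192 (SD, n = 3). The background was thus lower in all 3 ABCC1-overexpressing libraries than in any empty vector control library in each experiment. For each of the 10 transferases whose level it exceeded 50% of in a group, that percentage is given with the gene. The part of the background in the difference between lines was not tested beyond a fit that held it as a covariate. That fit was made in the second and the third experiments. As the background did not overlap between the lines, the fit can hardly tell it apart from the line. A call lost in it therefore does not show the part of the background. The fit called 12 genes in the second experiment and 92 in the third, against 581 and 1021 without the covariate.

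The promoters of GSTP1, GSTO1 and GSTM2 are shown because among the 10 GSTP1 and GSTO1 were the highest by level, and GSTM2 had the largest difference between lines over all experiments. Each sequence is the 250 bases before the gene's start in RefSeq (GRCh38.p14), read 5′ to 3′ on the gene's strand, with matches to the core of the antioxidant response element, TGACNNNGC, in capitals. The coordinates are chr11:67583562-67583811 for GSTP1, chr10:104254642-104254891 for GSTO1 and chr1:109667807-109668056 for GSTM2, all on the plus strand.
GSTP1: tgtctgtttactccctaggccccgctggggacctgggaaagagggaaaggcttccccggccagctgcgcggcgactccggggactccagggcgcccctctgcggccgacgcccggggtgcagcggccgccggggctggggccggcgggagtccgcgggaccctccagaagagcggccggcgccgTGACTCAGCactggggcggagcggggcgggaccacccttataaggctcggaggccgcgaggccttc
GSTO1: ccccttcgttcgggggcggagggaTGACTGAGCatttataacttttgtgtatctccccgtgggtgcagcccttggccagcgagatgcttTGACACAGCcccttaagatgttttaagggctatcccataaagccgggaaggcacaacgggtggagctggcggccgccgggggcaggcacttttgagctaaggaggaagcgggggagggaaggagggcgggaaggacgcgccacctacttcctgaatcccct
GSTM2: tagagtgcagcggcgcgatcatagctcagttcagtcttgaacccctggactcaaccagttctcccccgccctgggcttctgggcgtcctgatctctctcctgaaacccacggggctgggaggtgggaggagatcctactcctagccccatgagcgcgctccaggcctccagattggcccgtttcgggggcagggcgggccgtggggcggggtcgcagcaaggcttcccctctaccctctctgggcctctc
GSTP1 held 1 match, TGACTCAGC, at 66 to 58 bases before the start, and its first 7 letters are also the AP-1 site TGACTCA. GSTO1 held TGACTGAGC at 226 to 218 and TGACACAGC at 161 to 153 bases before the start. Of the 9 transferases with a RefSeq promoter, the other 7, GSTM2 among them, held neither motif on either strand in this window. The core was found in 10.9% and the AP-1 site in 4.20% of the 35116 promoters searched. A match is a stretch of letters and says nothing of binding in these cells.

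GSTP1 (ENSG00000084207, GRCh37 chr11:67351066-67354131, plus strand), the pi class enzyme of detoxification, was by far the highest of the 10 in every library. Per kb of exon it reached 151 ± 9.28 CPM in the Puro libraries of the first experiment (SD, n = 3), 93.0 ± 9.20 in the second and 86.8 ± 15.8 in the third. The next gene, GSTO1, an omega class enzyme with thiol transferase activity, had 13.6 ± 0.803, 14.97 ± 2.99 and 10.3 ± 0.696 CPM per kb. GSTP1 therefore made up 78.6% ± 0.720 of the summed level of the 10 genes in the control cells of the first experiment, and 74.02% ± 0.765 and 73.4% ± 2.20 in the second and the third. In the ABCC1-overexpressing cells the shares were 78.1% ± 2.95, 73.0% ± 1.81 and 75.9% ± 2.71, and the ranges of the 2 lines overlapped in each experiment.

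Below GSTP1 and GSTO1 in the control cells of the first experiment stood MGST3 (8.80 CPM per kb), GSTM3 (8.01), MGST2 (3.87), GSTK1 (3.37), GSTM4 (1.32), GSTM2 (1.12), GSTZ1 (0.885) and MGST1 (0.0285). Each step in this order was larger than the spread between libraries except that from GSTM4 to GSTM2, whose ranges overlapped. In the control cells of the second experiment GSTM3 and MGST3 overlapped at 4.995 and 4.77 CPM per kb, and GSTM2 (1.02) overlapped both GSTM4 (1.10) above it and MGST1 (0.473) below it. In those of the third, MGST3 and GSTM3 overlapped, as did GSTM3 and GSTK1, and the levels from GSTK1 down to GSTM4 lay between 2.74 and 2.14 with each neighbouring pair overlapping. These levels are per kb of all annotated exons of a gene, 1691 bases for GSTO1 and 8477 for GSTZ1, so a gene with many exons that its main transcript leaves out has a lower value.

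**Figure D1:**
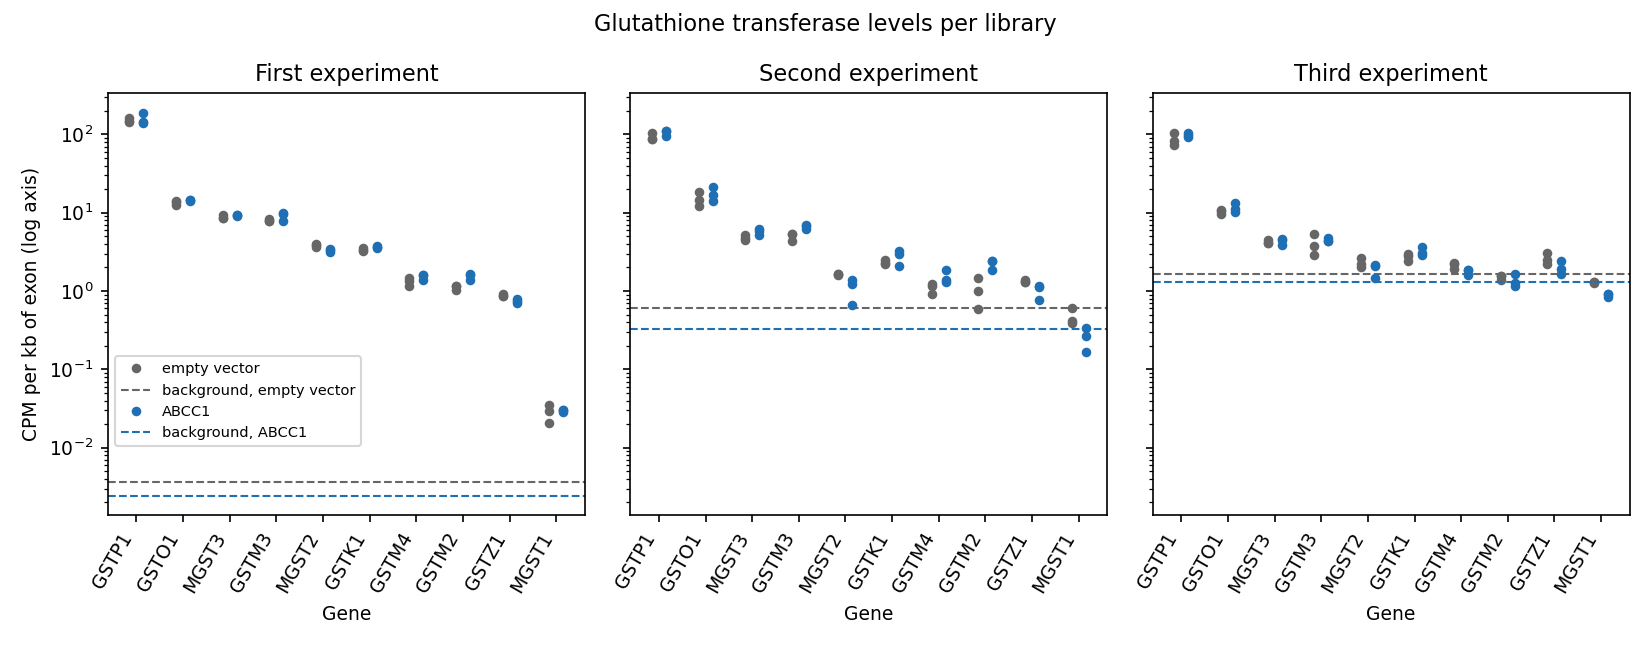
Level of each transferase in each library, as CPM per kb of exon on a log axis, by experiment. Points are libraries (grey, empty vector control cells, and blue, ABCC1-overexpressing cells) and dashed lines are the mean olfactory receptor background of each line. GSTP1 is at the top everywhere, MGST1 lies at or under the background lines in the second and the third experiments, and GSTM2 lies around them in the third.

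Whether the transferases changed with ABCC1 was tested within each experiment, with a call made at an adjusted p of at most 0.05 over all genes tested. In the first experiment 3 of 9 transferases tested were called, GSTM2 higher and GSTZ1 and MGST2 lower, where 37.6% of all genes were called, 17.9% higher and 19.7% lower. MGST1, with 4 to 11 counts per library, was too low to be tested there. Of the 10 tested in the second experiment 1, GSTM2, was called higher, where 1.70% of all genes were called and 1.25% were higher. In the third experiment edgeR called 0 of 10, where 2.80% of all genes were called, 2.03% higher and 0.767% lower. GSTZ1 and MGST1 had an unadjusted p under 0.05 there, 2 of 10, and DESeq2 also called 0 and had 0 at that unadjusted p. The median log2FC of the transferases tested was 0.09 in the first experiment, 0.24 in the second and -0.06 in the third, and the median of all genes tested was 0.01, -0.19 and -0.09. With RLE size factors the median of all genes in the second experiment was -0.08, and no transferase changed direction under that scaling. Where only genes with at least 10 counts in every library were kept, the median of all genes was -0.04 in the second experiment and -0.03 in the third.

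The libraries of the lines did not overlap for 4 of the 9 transferases tested in the first experiment, against 50.4% of all genes, for 7 of 10 in the second, against 29.8%, and for 2 of 10 in the third, against 19.5%. Those of the second experiment were 4 higher (GSTM2, GSTM3, GSTM4 and MGST3) and 3 lower ones (GSTZ1, MGST1 and MGST2). A fit of all 18 libraries, with the experiment as a term, called GSTM2 and GSTM3 higher, 2 of 10, where 12.4% of all genes were called, 8.73% higher and 3.72% lower. Of all those calls, 70.1% were higher in this scaling and 50.1% with RLE size factors, and in the third experiment the shares were 72.6% and 82.9%. When only genes with at least 10 counts in every library were kept, the joint fit called 5112 of 14773, 2448 higher and 2664 lower. The test of whether the effect of ABCC1 differed between experiments called 0 of 10 with edgeR, where 1.19% of all genes were called. GSTM2 and GSTM4 had an unadjusted p under 0.05 in it, 2 of 10, and DESeq2 called 1, GSTM2.

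**Figure D2:**
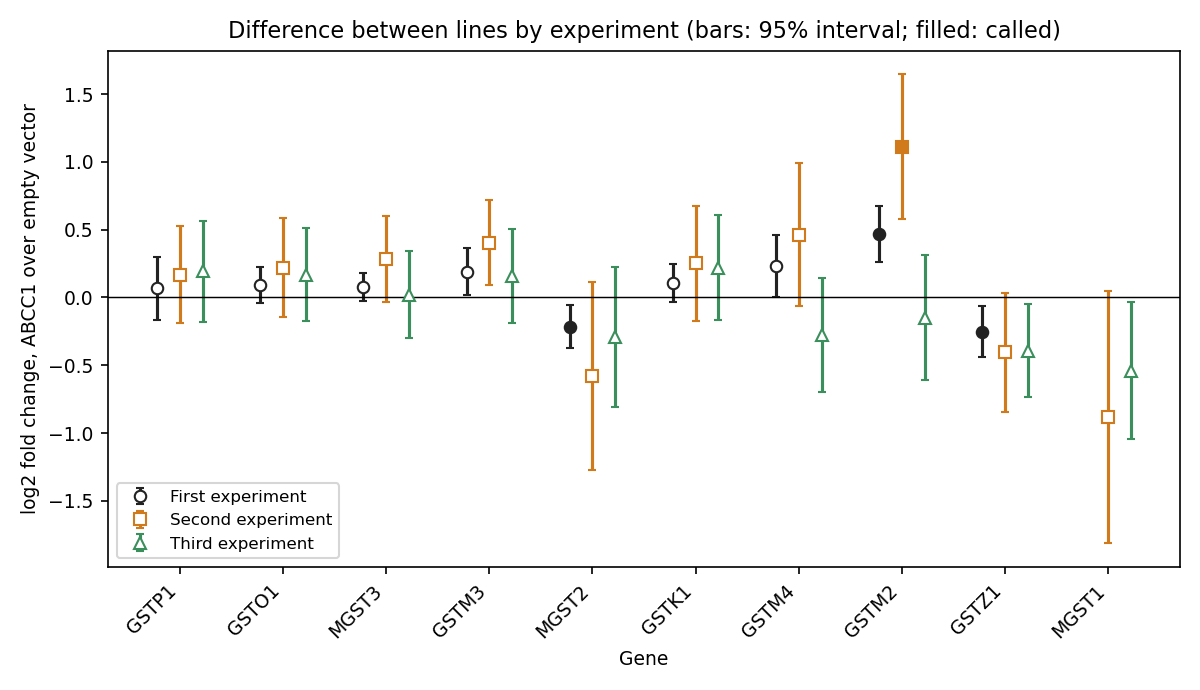
Log2 fold change of each transferase, ABCC1-overexpressing over empty vector control cells, with its 95% interval, in the 3 experiments (n = 3 libraries a group). Filled symbols were called at an adjusted p of at most 0.05. GSTM2 is filled in the first and second experiments and below 0 in the third, and GSTZ1 and MGST2 are below 0 in all 3.

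GSTM2 (ENSG00000213366, GRCh37 chr1:110210644-110252171, plus strand) is a mu class enzyme that conjugates aminochrome and other oxidized catecholamines. It was higher in the ABCC1-overexpressing cells of the first experiment and of the second, and not in the third. In the first experiment the 3 control libraries had 6.80, 6.13 and 6.85 CPM and the 3 ABCC1 libraries had 9.81, 9.51 and 8.18. The groups did not overlap, and the log2FC was 0.47 (SE 0.0943, adjusted p = 0.00288), a 1.38-fold difference. This call was lost when the spread was shared across all 18 libraries (adjusted p = 0.159).

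For the second experiment the control libraries had 8.64, 5.87 and 3.503 CPM of GSTM2 and the ABCC1 libraries 14.01, 14.2 and 10.8. The control libraries spread widely, yet all lay below the lowest ABCC1 library. The log2FC was 1.11 (SE 0.260, adjusted p = 0.0307), a 2.16-fold difference. The call was lost without Puro replicate 2 (log2FC 1.10, adjusted p = 0.0704), without Puro replicate 3 (0.86, adjusted p = 0.181) and without ABCC1 replicate 2 (1.06, adjusted p = 0.129), and with the background as a covariate (1.05, adjusted p = 0.495). Per kb, Puro replicate 3 stood at 0.597 CPM for GSTM2 and 0.610 for the background, while the ABCC1 libraries stood at 1.84 to 2.43 against 0.154 to 0.454. Over the control libraries the background was 60.2% of the GSTM2 level.

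In the third experiment the control libraries had 9.22, 9.10 and 8.18 CPM of GSTM2 and the ABCC1 libraries 7.47, 9.56 and 6.88, and the groups overlapped. The log2FC was -0.15 (95% interval -0.61 to 0.31, adjusted p = 0.818). The background was 111% of the GSTM2 level in these control cells and 97.1% in the ABCC1 cells, and with the background as a covariate the log2FC was -0.235 (adjusted p = 0.946). The joint fit uses the same libraries as the fits within the experiments and is no independent support. In it the log2FC was 0.57 (SE 0.145, adjusted p = 0.00486). GSTM2 was called in all 23 alternative joint fits, none of which held the background as a covariate. Its effect did not pass the test of a difference between experiments (adjusted p = 0.0758, range over alternatives 0.00405 to 0.242), though it did in 6 of 23 alternatives, among them those without Puro replicate 1 of the second experiment (adjusted p = 0.00405), without ABCC1 replicate 3 of the second (0.0202) and without ABCC1 replicate 2 of the third (0.0478).

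Of the 10, GSTM2 shares the most sequence with other genes. Of the 1681 stretches of 50 bases in its longest protein-coding transcript, 817, or 48.6%, also occur in transcripts of GSTM1, GSTM4, GSTM5 or GSTM2P1, and 559 of its 5864 exon bases overlap exons annotated to GSTM1. Reads there could be dropped as mapping to several places or lying on several genes, so its level per kb may be understated by an amount that was not measured. For GSTM4 the share was 11.7%, for GSTO1 3.09%, for GSTM3 1.45%, and for GSTP1, GSTZ1, GSTK1 and MGST1 to MGST3 it was 0.

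GSTM3 (ENSG00000134202, GRCh37 chr1:110276554-110284384, minus strand), a mu class enzyme known from brain and testis, was not called within any experiment but was called higher in the joint fit. Control and ABCC1 libraries had 39.8, 38.3 and 38.1 against 47.8, 46.8 and 38.3 CPM in the first experiment, where the lowest ABCC1 library fell among the control libraries. Its log2FC there was 0.19 (adjusted p = 0.0800), and 0.29 without ABCC1 replicate 3 (adjusted p = 1.97e-05). In the second experiment 21.4, 25.6 and 25.5 CPM stood against 32.9, 33.4 and 29.8 without overlap, with a log2FC of 0.41 (adjusted p = 0.136), and in the third the groups overlapped (0.16, adjusted p = 0.726). The joint log2FC was 0.32 (SE 0.0930, adjusted p = 0.0155), and the call was lost where only genes with at least 10 counts in every library were kept (0.16, adjusted p = 0.0856). Of its exon bases, 202 are shared with ENSG00000241720 on the other strand, whose reads the counting, made without strand, cannot tell apart.

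GSTM4 (ENSG00000168765, GRCh37 chr1:110198703-110208118, plus strand), the mu class neighbour of GSTM2, had 6.18 to 7.999 CPM in the control libraries of the first experiment and 7.46 to 8.73 in the ABCC1 libraries. Its log2FC was 0.23 in the first experiment, 0.46 in the second and -0.28 in the third, and none was called (adjusted p = 0.106, 0.292 and 0.574). All ABCC1 libraries (6.91 to 10.1 CPM) of the second experiment lay above its control libraries (4.99 to 6.52), and in the third all ABCC1 libraries (8.52 to 10.0 CPM) lay below them (10.2 to 12.4). The background was 56.0% of the GSTM4 level in the control cells and 21.3% in the ABCC1 cells of the second experiment, and 78.4% and 74.7% in the third.

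GSTP1 was not called in any experiment. Its control libraries had 311, 282 and 279 CPM in the first experiment and its ABCC1 libraries 279, 271 and 365, so a single ABCC1 library stood apart on the high side. The log2FC was 0.07 (95% interval -0.16 to 0.30, adjusted p = 0.637) with that library and -0.08 without it (ABCC1 replicate 3, adjusted p = 0.125). In the second and the third experiments the log2FC was 0.17 (-0.19 to 0.53, adjusted p = 0.590) and 0.19 (-0.18 to 0.57, adjusted p = 0.683), and in the joint fit 0.21 (adjusted p = 0.158). The joint fit called it only without Puro replicate 2 of the third experiment (0.27, adjusted p = 0.0424). The joint log2FC lay above that of each experiment and depended on the processing. It ran from 0.0394 to 0.269 over the 23 alternatives, and from 0.160 to 0.269 over those that left out single libraries. The cause was not tested. The background was at most 1.93% of the GSTP1 level.

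GSTO1 (ENSG00000148834, GRCh37 chr10:105995114-106027217, plus strand) had a log2FC of 0.09, 0.22 and 0.17 in the 3 experiments and overlapping groups in each. It had 21.5 to 24.1 CPM in the control libraries and 24.1 to 24.8 in the ABCC1 libraries of the first experiment. None of these differences was called, nor the joint log2FC of 0.22 (adjusted p = 0.103), which was called without Puro replicate 3 of the second experiment (0.27, adjusted p = 0.0469). The joint log2FC ran from 0.0606 to 0.274 over the 23 alternatives.

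GSTZ1 (ENSG00000100577, GRCh37 chr14:77787227-77797940, plus strand), the zeta class enzyme that isomerizes maleylacetoacetate in tyrosine breakdown, was lower in the ABCC1-overexpressing cells of the first experiment. The control libraries had 7.28, 7.82 and 7.42 CPM and the ABCC1 libraries 6.71, 6.26 and 5.89, without overlap. The log2FC was -0.25 (SE 0.0848, adjusted p = 0.0381), a decrease of 16% that was called in 3 of 12 alternatives. Among the single libraries, leaving out any of Puro replicate 1, 2 or 3 or ABCC1 replicate 2 or 3 ended the call (log2FC -0.28, -0.22, -0.26, -0.25 and -0.19, adjusted p between 0.0619 and 0.118). In the second experiment 11.8, 11.04 and 11.2 CPM stood against 9.48, 9.77 and 6.49, again without overlap (log2FC -0.41, adjusted p = 0.271), and in the third the groups overlapped (-0.39, adjusted p = 0.241). The background made up 46.0% of the level in the control cells and 32.0% in the ABCC1 cells of the second experiment, and 64.6% and 66.6% in the third. With the background as a covariate the log2FC was -0.62 in the second and -0.03 in the third. The joint log2FC was -0.28 (adjusted p = 0.0679) and was called in 3 of 23 alternatives (RLE size factors, DESeq2 and at least 10 counts in every library).

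GSTK1 (ENSG00000197448, GRCh37 chr7:142941186-142967947, plus strand) had 13.8 to 14.9 CPM in the control libraries and 14.9 to 15.9 in the ABCC1 libraries of the first experiment, with no overlap but a log2FC of 0.11 that was not called. In the second and the third experiments the log2FC was 0.25 and 0.22 with overlapping groups, and 0.04 and -0.03 with the background as a covariate. The background was 61.1% of the GSTK1 level in the control cells and 41.2% in the ABCC1 cells of the third. The joint log2FC was 0.26 (adjusted p = 0.0783), and it was called without ABCC1 replicate 3 of the second experiment (0.31, adjusted p = 0.0301), without Puro replicate 2 of the third (0.29, adjusted p = 0.0489) or without ABCC1 replicate 1 of the third (0.30, adjusted p = 0.0415). It ran from 0.0869 to 0.310 over the 23 alternatives.

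Of the membrane transferases, MGST2 (ENSG00000085871, GRCh37 chr4:140586922-140661899, plus strand), which can make leukotriene C4, was lower in the ABCC1-overexpressing cells of the first experiment. The control libraries had 12.9, 12.4 and 11.6 CPM and the ABCC1 libraries 10.7, 10.1 and 11.01, without overlap. The log2FC was -0.21 (SE 0.0724, adjusted p = 0.0381), a decrease of 13.8% that was called in 4 of 12 alternatives. It was lost without Puro replicate 1 or 2 or ABCC1 replicate 1 or 2 (log2FC -0.18, -0.21, -0.22 and -0.18, adjusted p between 0.0836 and 0.133). In the second experiment 5.07, 5.20 and 5.33 CPM stood against 3.88, 2.10 and 4.40, without overlap and with a wide spread among the ABCC1 libraries (log2FC -0.58, adjusted p = 0.321). In the third the groups overlapped (-0.29, adjusted p = 0.648), and the background was 72.6% and 69.8% of the level in the control and the ABCC1-overexpressing cells. With the background as a covariate the log2FC was -0.63 in the second and -0.008 in the third. The joint log2FC was -0.28 (adjusted p = 0.144), called in the same 3 alternatives as that of GSTZ1. MGST2 shares 252 exon bases with MAML3 on the other strand.

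**Figure D3:**
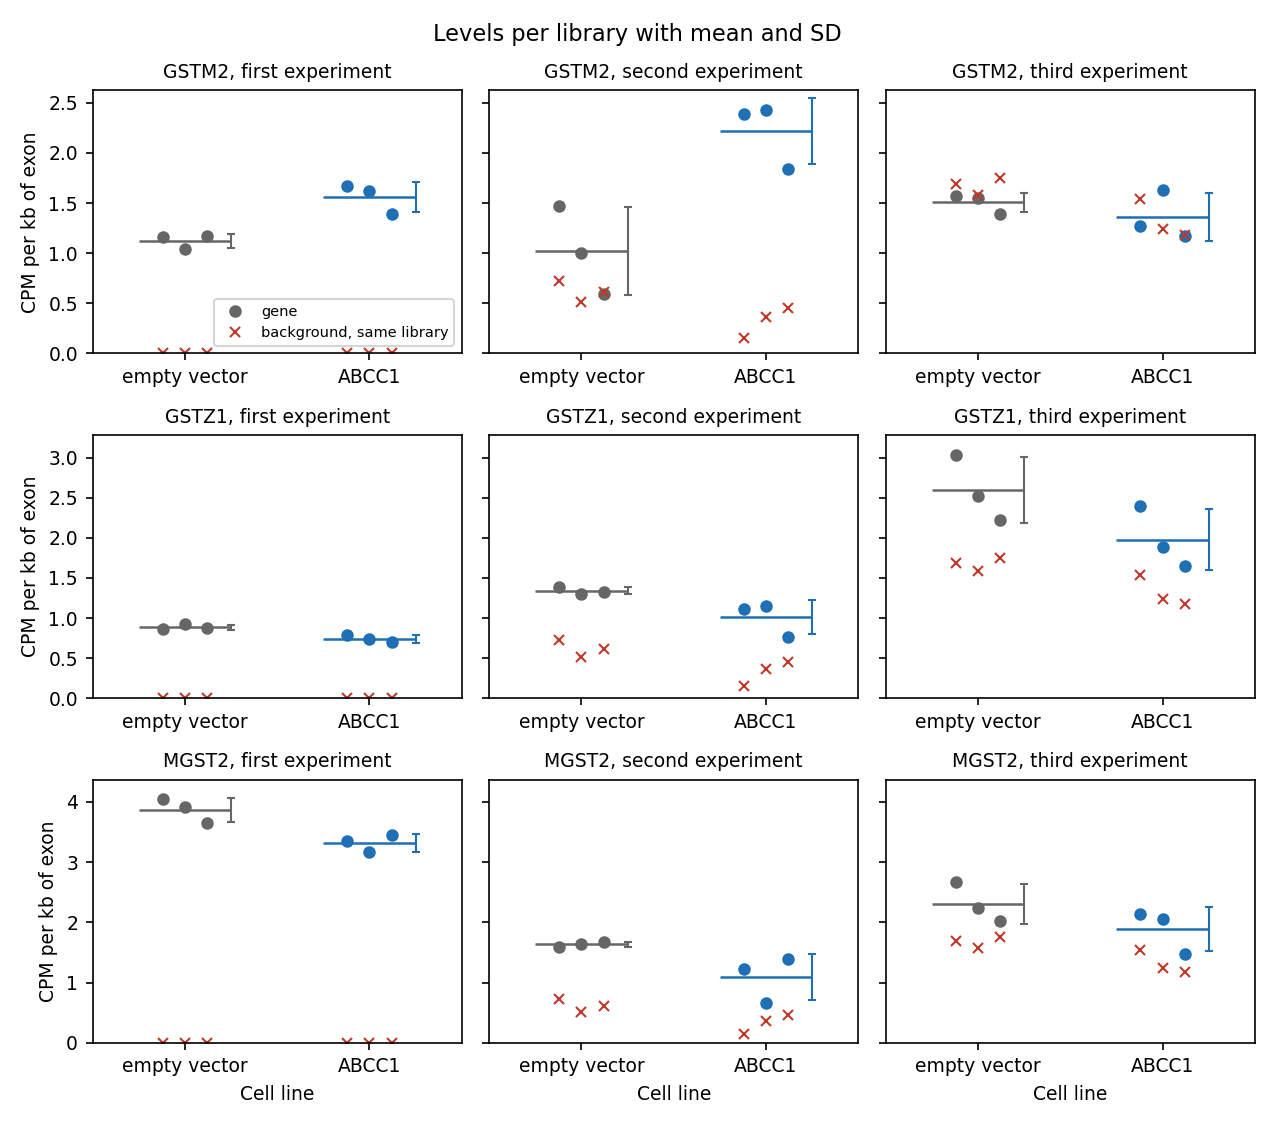
Levels of GSTM2, GSTZ1 and MGST2, the transferases called in the first experiment, as CPM per kb of exon in each library (points), with the group mean (line) and SD (bar) and the olfactory receptor background of the same library (red crosses). The background lies near 0 in the first experiment, below all 3 genes except GSTM2 in Puro replicate 3 in the second, and in the third above the GSTM2 points of the control cells and among those of the ABCC1 cells.

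MGST3 (ENSG00000143198, GRCh37 chr1:165600098-165631033, plus strand), a membrane transferase with peroxidase activity, was the highest of the MAPEG members in every group. It had 67.2 to 73.2 CPM in the control libraries and 72.2 to 74.4 in the ABCC1 libraries of the first experiment, with a log2FC of 0.08 (95% interval -0.03 to 0.18). In the second experiment the ABCC1 libraries (41.6 to 49.1 CPM) lay above the control libraries (34.9 to 40.5) with a log2FC of 0.28, and in the third the log2FC was 0.02. None was called. MGST1 (ENSG00000008394, GRCh37 chr12:16500076-16762193, plus strand), the microsomal enzyme that is abundant in liver, was the lowest of the 10 in the first experiment, at 0.0285 and 0.0296 CPM per kb in the lines. In the second and the third experiments its ABCC1 libraries lay below its control libraries (1.03 to 2.09 against 2.43 to 3.83 CPM, and 5.25 to 5.77 against 7.97 to 8.13 CPM), with a log2FC of -0.88 and -0.54 that was not called (adjusted p = 0.258 and 0.283). With the background as a covariate it was -0.20 and -0.46. The joint log2FC was -0.50 (adjusted p = 0.138 with edgeR), and DESeq2 called it (-0.63, adjusted p = 0.0120). Its mean level was under the background in all 4 groups, the background being 127% to 148% of it, and the background itself was lower in the ABCC1-overexpressing cells, at 0.527 and 0.788 of that in the control cells.

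**Figure D4:**
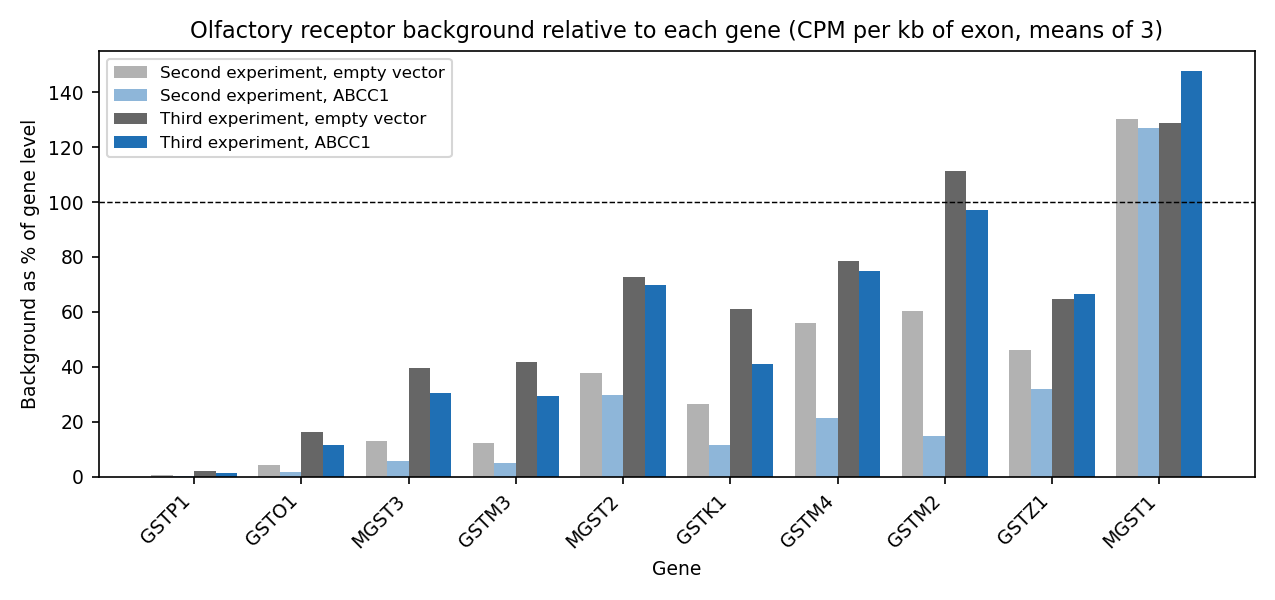
Olfactory receptor background as a percentage of each transferase's level, both as CPM per kb of exon and means of 3 libraries, in the second experiment (pale) and the third (dark). The dashed line marks a gene at the background. GSTP1 stays at or under 1.93%, whereas MGST1 is above 100% in all 4 groups and GSTM2 is at 111% in the empty vector control cells of the third.

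The rest of the glutathione pathway was read from lists of genes, to be set against the 37.6%, 1.70%, 2.80% and 12.4% of all genes called in the first, the second, the third and the joint fits. Where only genes with at least 10 counts in every library were kept, the joint fit called 5112 of 14773. Of 15 genes of glutathione synthesis and recycling, 13 were tested in the first experiment, where 3 were higher (GCLC and GCLM, the subunits of the rate-limiting ligase, and the cystine carrier SLC7A11) and 2 lower (GLRX and GGCT), 5 of 13 and so near the share of all genes. In the second and the third experiments edgeR and DESeq2 called 0 of 15, with 1 and 2 at an unadjusted p under 0.05, and GLRX was lower in the joint fit. Of 15 other transferase and MAPEG genes found in the files, GSTO2 and GSTCD were lower among 6 tested in the first experiment, edgeR and DESeq2 called 0 of 13 in the second and the third (5 and 2 at an unadjusted p under 0.05), and GSTO2 was lower in the joint fit. The background was 66.3% and 53.5% of the GSTO2 level in the control and the ABCC1 cells of the second experiment and 96.7% and 90.0% in the third. Of 15 genes listed for the mercapturic acid pathway, which breaks conjugates down, GGT7 was higher and CHAC1 and CHAC2 lower among 8 tested in the first experiment. CHAC1 and CHAC2 break down glutathione itself and not its conjugates. EdgeR called 0 of these 15 in the second and the third (5 and 4 at an unadjusted p under 0.05, and 2 and 0 by DESeq2). GGT7 and CNDP2 were higher and DPEP3 lower in the joint fit. DPEP3 had 0 counts in all 6 libraries of the first experiment, and in the second and the third the background was 39.2% to 62.0% of its level and 15.99% to 73.5% of that of CNDP2. Of 4 genes of tyrosine breakdown, which holds the GSTZ1 step, FAH was higher as the sole gene tested in the first experiment and edgeR called 0 of 4 in the second, the third and the joint fits (0, 2 and 1 at an unadjusted p under 0.05, and 0, 0 and 1 by DESeq2). These genes are named for having been called, which was known when they were named.

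Among 20 NRF2 regulators and targets, 6 were higher and 2 lower in the first experiment, edgeR called 0 in the second (7 at an unadjusted p under 0.05, 5 by DESeq2), 1 was higher in the third and 7 were higher in the joint fit. The 8 of 20 called in the first experiment are near the 37.6% of all genes called there, and the shares of all genes called higher in the third and the joint fits were 2.03% and 8.73%. Among genes with at least 10 counts in every library, 1377 of 27618 and 2448 of 14773 were called higher in these 2 fits. The median log2FC of the NRF2 genes was 0.07, 0.25 and 0.13 in the 3 experiments, where that of all genes tested was 0.01, -0.19 and -0.09. Among genes with at least 10 counts in every library the median was -0.04 in the second and -0.03 in the third. MAFF, a small MAF protein that pairs with NRF2 on antioxidant response elements, had 17.7 ± 0.814 CPM against 34.0 ± 0.660 in the first experiment, 10.2 ± 2.22 against 15.2 ± 0.623 in the second and 15.4 ± 2.56 against 26.4 ± 0.980 in the third (SD, n = 3, control cells first). It was called in the first (log2FC 0.94, adjusted p = 7.51e-07), the third (0.78, adjusted p = 0.00164) and the joint fit (0.84, adjusted p = 7.07e-09), and not in the second (0.58, adjusted p = 0.0952, or 0.70 and 0.0462 with RLE size factors). The call in the third was lost with the background as a covariate (0.79, adjusted p = 0.250).

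Of 9 exporters of glutathione conjugates, among them the row of the native ABCC1 gene, 8 were tested in the first experiment and 5 were called higher, the ABC transporters ABCC2, ABCC4, ABCC5, ABCC6 and ABCC11, where 17.9% of all genes were higher. In the second edgeR called 1 of 9, ABCC3, lower, where 0.458% of all genes were lower, with 4 at an unadjusted p under 0.05 and 3 called by DESeq2. In the third edgeR called 0 of 9, with 2 at an unadjusted p under 0.05 and 1 called by DESeq2, and ABCC4 and ABCC5 were higher in the joint fit. The test of a difference between experiments called 3 of 9, ABCC3, ABCC6 and ABCC11, where 1.19% of all genes were called. DESeq2 called 2 of them, ABCC6 and ABCC11. The median log2FC of the exporters tested was 0.20, -0.18 and -0.06 in the 3 experiments, beside 0.01, -0.19 and -0.09 for all genes tested. For genes with at least 10 counts in every library the median was -0.04 in the second and -0.03 in the third. These exporters too were named after their values were seen.

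Of 7 genes of leukotriene C4 synthesis and breakdown, 1 was tested in the first experiment, 6 in the second and the third and 7 in the joint fit. LTA4H, which turns leukotriene A4 into leukotriene B4, was called higher in the first experiment (log2FC 0.19, adjusted p = 0.0259), the second (0.70, adjusted p = 0.0497) and the joint fit (0.38, adjusted p = 0.00910), and not in the third (0.03, adjusted p = 0.948). The call ended without Puro replicate 1 or 2 or ABCC1 replicate 1 or 2 in the first experiment (0.17, 0.19, 0.14 and 0.18) and without any Puro replicate or ABCC1 replicate 2 in the second (0.57, 0.83, 0.76 and 0.54). It also ended in the first with the replicate block (0.19, adjusted p = 0.0551) and with the spread shared across all 18 libraries (0.19, adjusted p = 0.473), and in the second with the background as a covariate (0.83, adjusted p = 0.436). Of the 11 adrenergic markers, 8, 0, 3 and 5 were called in the first, the second, the third and the joint fits, where 37.6%, 1.70%, 2.80% and 12.4% of all genes were. With only genes of at least 10 counts in every library, the joint fit called 5112 of 14773. The 3 called in the third, TH, DBH and PHOX2A, had a log2FC of 0.625, -0.63 and -0.68 there. With the background as a covariate it was 0.61, -0.87 and -1.05, and none was called (adjusted p = 0.412, 0.202 and 0.0829). In the joint fit TH, the rate-limiting enzyme of catecholamine synthesis, was higher (0.61, adjusted p = 5.04e-06) and DBH, which makes noradrenaline, was lower (-0.60, adjusted p = 3.95e-05), while PHOX2A, a transcription factor of noradrenergic neurons, was not called (-0.31, adjusted p = 0.0580) and was called in 7 of 23 alternatives, among them with RLE size factors (-0.40, adjusted p = 0.00358) and without ABCC1 replicate 3 of the first experiment (-0.36) or Puro replicate 1 (-0.37) or ABCC1 replicate 1 (-0.35) of the second. Of the 11 adrenergic markers 5 had an unadjusted p under 0.05 in the second experiment, and DESeq2 called 3. Of 8 mesenchymal markers 6, 0, 0 and 2 were called in the same fits, with 1 and 2 at an unadjusted p under 0.05 and 1 and 0 by DESeq2 in the second and the third. Of the Schwann cell, epithelial and endothelial markers edgeR called 0 in any fit, of 2, 2 and 0 tested in the first experiment and 5, 4 and 2 in the others. At an unadjusted p under 0.05 there were 0 of them in the first and the third experiments, 1, 2 and 2 in the second and 0, 1 and 2 in the joint fit, and DESeq2 called 0 in the first and the third and 0, 1 and 1 in the second and 0, 1 and 2 in the joint fit. Of 4 blood and immune markers 0, 2, 2 and 3 were tested in the first, the second, the third and the joint fits, and 1, PTPRC, was lower in the third and the joint fits. The background was 103% and 112% of the PTPRC level in the control and the ABCC1 cells of the second experiment and 87.3% and 114% in the third.

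The genes whose pattern over the 18 libraries was most like that of GSTP1, among 10597 compared by Pearson correlation of log2 CPM centred within each experiment, were TMEM204 (r = 0.939), METTL26 (r = 0.901) and RPL13P12 (r = 0.900). Those most like GSTM2, which had the largest joint log2FC in size among the 10, were RIPK2 (r = 0.920), LMTK3 (r = 0.916) and MTF1 (r = 0.895), the last a metal-responsive transcription factor. These values describe the 18 libraries, which share lines, depth and background, and RPL13P12 is a pseudogene that can share reads with RPL13.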

How the data were processed

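RNA from 18 libraries of BE(2)-m17 cells was sequenced by the study, from TruSeq libraries on a NextSeq instrument in the first experiment (a protocol label names the SMARTer kit for it instead) and from SMARTer Pico total RNA libraries on a NovaSeq instrument in the others. The submitters' processing notes name bcl2fastq 2.18, STAR 2.7.3a and featureCounts of Subread 2.0.0. The authors deposited raw read pair counts per gene, made without regard to strand over exons of Ensembl release 74 (GRCh37) and the vectors, with pairs that mapped to several places or lay on several genes left uncounted. The assigned totals, 8866994 to 57937653 per library, are the depth, and their counting error is a lower bound on the error, since reads are not independent molecules.

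Symbols were matched to the Ensembl identifiers, and 10 of 10 transferases were found, whereas GSTT1 and PECAM1 of the other lists were not. Each experiment was fitted on its own with edgeR 4.0.16 under R 4.3.3 (filterByExpr at a minimum count of 10, TMM, robust quasi-likelihood test, two-sided, Benjamini-Hochberg adjustment over all rows tested), after tests on simulated data. CPM uses TMM library sizes. A joint fit added the experiment as a term, and the interaction of experiment and line was tested with an F test. DESeq2 1.42.0, RLE size factors, other filters, the replicate block, a shared spread, the background as a covariate and leaving out each library were alternatives. Library pairs of a group had a chi-square of 1.53 to 26.1 per degree of freedom, so none was counted as a duplicate. Within each experiment an exact permutation test of 3 libraries against 3 could not go below p = 0.1 and was not used.

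The members and gene lists were chosen with earlier results of these data known. The genes named are the 10 transferases, genes of each other list called in the same direction in at least 2 experiments (at most 4 a list), and the 3 genes most like GSTP1 and most like the transferase of largest joint log2FC (mean CPM of at least 5 in each experiment, log2(CPM + 0.1)). Further names were added after their values were seen. One gene of the exporter list is not reported here and was left out of that list's counts. RefSeq promoters (GRCh38.p14) were found for 9 of the 10, and GENCODE release 29 transcripts gave the shared stretches of 50 bases.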

Additional observations from a re-analysis of the deposited data

Results flagged for a closer look

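The effect of ABCC1 on 3 exporters of glutathione conjugates differed between the experiments by the edgeR interaction test, and these were noticed after their values were seen. For ABCC11 the log2FC was 2.27 in the first experiment, -0.54 in the second and -0.28 in the third (adjusted p = 7.66e-06 for the difference), and the difference was called in all 23 alternatives. ABCC6 had 0.82, -0.24 and -0.06 (adjusted p = 0.00977), called in 21 of 23 alternatives and not without Puro replicate 3 or ABCC1 replicate 1 of the first experiment (adjusted p up to 0.0863). ABCC3 had 0.24, -0.99 and -0.32 (adjusted p = 0.0321), called in 12 of 23 alternatives, with adjusted p up to 0.133 and the call lost with DESeq2, with RLE size factors, with at least 10 counts in every library and without any of 8 single libraries, among them all 3 Puro libraries of the first experiment. The background was at most 3.99% of the level of these genes in the first experiment and 20.2% to 57.0% in the second and the third, and its part in the differences was not tested.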

How the results depend on the processing

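In the first experiment the number of transferases called went from 3 to 1 with DESeq2 and with the replicate block, to 2 (GSTM2 and GSTM3, without GSTZ1 and MGST2) with no filter on low counts, to 0 when all 18 libraries shared one spread, and to between 1 and 3 without single libraries. In the second it went from 1 to 0 with the background as a covariate, to 2 (GSTM2 and MGST1) with the shared spread, and to 0 or 1 without single libraries. It was 0 in the third under each alternative. The joint count of 2 became 3 with at least 10 counts in every library (GSTM2, GSTZ1 and MGST2, without GSTM3), 4 with RLE size factors, 5 with DESeq2 and 2 to 4 without single libraries, and the count of transferases whose effect differed between experiments went from 0 to 1 (GSTM2) without the filter on low counts, with the replicate block and with DESeq2, and was 0 or 1 without single libraries. The causes were not tested.

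The correlations of same-numbered libraries lay between -0.185 and 0.118 within the experiments. With 3 libraries a group they cannot settle whether the replicate numbers pair the libraries. The replicate block therefore holds a shared number that may or may not stand for a shared week. The mean correlation was -0.0931, -0.0852 and 0.0528 for the same number in the 3 experiments and 0.0467, 0.0422 and -0.0266 for different numbers. The second set largely follows from the first, since each gene was centred within its group, and is no separate comparison. The replicate block gave 5356, 710, 1886, 4855 and 390 genes called in the first, the second, the third, the joint and the interaction fits. The numbers of all genes called without it were 6382, 581, 1021, 5754 and 550. In the first experiment the shared spread gave 1975 and leaving out libraries 4663 to 7827. In the second DESeq2 gave 2727, RLE size factors 1086, no filter 1402, at least 10 counts in every library 1366, the background covariate 12, the shared spread 5427 and leaving out libraries 8 (Puro replicate 3) to 1359 (ABCC1 replicate 3). In the third experiment DESeq2 gave 1553, at least 10 counts 1725, the covariate 92, the shared spread 1567 and leaving out libraries 394 to 2760. The interaction gave 356 with at least 10 counts, 888 with DESeq2 and 334 to 1111 without single libraries.

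Directions turned in few cases, none of them called. GSTP1 in the first experiment had a log2FC of -0.07997 without ABCC1 replicate 3, the lower end of a range up to 0.1482. With the background covariate, the third experiment gave -0.07793 for GSTP1, -0.134 for GSTM3, -0.02819 for GSTK1 and -0.141 for LTA4H. LTA4H there was also -0.009205, -0.03682 and -0.03284 without Puro replicate 1, Puro replicate 3 or ABCC1 replicate 3, in a range up to 0.2455. PHOX2A in the second was -0.04521 with at least 10 counts, -0.07039 without Puro replicate 1 (in a range up to 0.1355), -0.132 with the covariate and -0.003688 with the shared spread. Over the transferases, 775 of the recomputed values kept direction and side of the threshold, 23 lost and 21 gained a call and 4 turned. For the other named genes the numbers were 363, 35, 14 and 8.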

Other observations

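GSTM1, the mu class gene next to GSTM2, had 2 counts in one control library and 1 in one ABCC1-overexpressing library of the first experiment, and 0 counts in all 12 libraries of the second and the third. In those 12 libraries a gene with its 2512 exon bases at the olfactory receptor background would have had between 10.1 and 47.0 counts per library. GSTM5, the gene on the other side of GSTM1, had between 6 and 111 counts in the same libraries, where the background at its length gives between 24.3 and 113 counts. A count of 0 allows up to 3 counts per library by counting error alone. Of the stretches of 50 bases in the longest GSTM1 transcript, 58.5% also occur in other mu class transcripts, against 48.6% for GSTM2 and 8.03% for GSTM5, and GSTM2 was counted at 73 to 368 read pairs in these 12 libraries. The part of shared sequence in the GSTM1 counts was not tested.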
